A study of Mus musculus with 2 samples.

Results

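The genes described here make microRNAs and carry out silencing by them: Drosha, Dgcr8, Xpo5, Dicer1, Tarbp2, Ago1, Ago2, Tnrc6a, Tnrc6b and Tnrc6c. They were taken by name, as every probe set of the array whose only gene symbol was one of these 10, and they are 10 of the 18193 genes that had a probe set with a single symbol. Together they had 33 probe sets, all listed under the current symbols. RNA of pancreatic islets from male mice, 6 weeks of age, was read on Affymetrix mouse expression arrays, with 1 array for transgenic mice overexpressing miR-141 and miR-200c and 1 array for Bl6 controls of the C57Bl6 strain. In the published study the transgene is driven by the rat insulin promoter, which is active in beta cells. The labels give only the prefix Rip in a sample title, name beta cells as the source and islets as the tissue, and do not say how many mice gave each sample. The islets had no treatment between isolation and RNA extraction. Values are log2 expression values made with RMA (robust multi-array average), which subtracts background, gives the arrays the same distribution and combines a probe set's probes into a single value. With 1 array per genotype there is no replicate, no test and no p-value. A strain is named here only for the controls, and genotype cannot be told apart from any other difference between the samples. A difference here means the log2 value on the transgenic array minus that on the control array.

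A microRNA begins as a hairpin in a long transcript. In the nucleus, Drosha and its partner Dgcr8 (together the Microprocessor) cut the hairpin out, exportin 5 carries it to the cytoplasm, and Dicer, helped by Tarbp2, trims it to a duplex. An Argonaute protein keeps a single strand as guide, and proteins of the Tnrc6 family (GW182) tie the Argonaute to the enzymes that shorten and decap the messenger RNA. In mice, loss of Dicer1 in beta cells leads to diabetes.

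The hairpins of the overexpressed microRNAs show what this machinery handles in the transgenic islets. They lie on the minus strand of chromosome 6 (RefSeq, GRCm38.p6) at chr6:124718322-124718390 for Mir200c, 69 bases, and chr6:124717914-124717985 for Mir141, 72 bases. These are the genomic copies, and the sequence of the transgene itself was not used here. Drosha cuts at the base of such a hairpin and Dicer cuts near its loop. Capitals mark the mature 5p and 3p strands, with 18 bases between them in Mir200c and 20 in Mir141.
Mir200c hairpin: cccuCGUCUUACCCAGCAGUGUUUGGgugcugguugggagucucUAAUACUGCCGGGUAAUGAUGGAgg
Mir141 hairpin: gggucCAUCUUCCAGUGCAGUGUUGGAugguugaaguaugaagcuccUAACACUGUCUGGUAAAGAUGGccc

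The 3p strands of the family fall into 2 groups by seed, the bases 2 to 8 that an Argonaute presents for pairing with a target, given in capitals. The seed of miR-200c-3p was held by 3 mature mouse microRNAs of the RefSeq table and that of miR-141-3p by 2. Counted from 1 at the 5′ end of miR-200c-3p, the seeds differ by the single substitution U4C.
miR-200c-3p: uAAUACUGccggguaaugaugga
miR-200b-3p: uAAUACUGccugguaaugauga
miR-429-3p: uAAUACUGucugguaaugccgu
miR-141-3p: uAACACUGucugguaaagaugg
miR-200a-3p: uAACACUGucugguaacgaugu

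The array reads messenger RNAs and not these small RNAs. The comparison therefore asks whether messenger RNA levels of the machinery differed between islets with and without the extra microRNAs. None of the 10 genes differed 2-fold in either direction. Over all 12143 genes kept by the floor described next, 2.51% were higher by 2-fold or more on the transgenic array and 0.511% lower by 2-fold or more, so with 10 genes a count of 0 is close to that background. Each gene was read from its brightest probe set (by the mean over the arrays), and genes under 5.76 on both arrays were dropped; this floor is the median of all values. At a 1.5-fold rule the count was also 0, against 10.9% of all kept genes past that rule in either direction. By gene, 6 were higher and 4 lower on the transgenic array, with a median difference of 0.10 against 0.029 over all kept genes. The median size of the difference, taken without its sign, was 0.20 for the machinery genes and 0.20 for all kept genes.

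Of the 33 probe sets, 28 reached the floor on at least 1 array and 5 were below it on both. Of the 28, 11 were higher and 17 lower on the transgenic array, and 0 passed the 2-fold rule. The share on the higher side was 39.3%, against 51.8% of all single-symbol probe sets at the floor. Of the 17 lower probe sets, Tnrc6a gave 8 and Ago2 gave 4. Counted by gene the share lay on the other side, with 6 of 10 higher against 54.2% of all kept genes. Over all 20548 single-symbol probe sets at the floor, 2.15% were higher by 2-fold or more and 0.784% lower by as much. The central 95% of those differences ran from -0.70 to 0.93, and 27 of the 28 lay inside it. The exception was a probe set of Tnrc6a, described below with its gene. Several probe sets of a gene are readings of 1 RNA sample, not replicates. Where a gene has several, the distance between their differences shows how far apart readings of the same gene can lie. Over 5180 genes with at least 2 probe sets at the floor, this distance had a median of 0.28. What part of it came from the probes, from different transcripts of a gene or from noise was not tested.

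**Figure D1:**
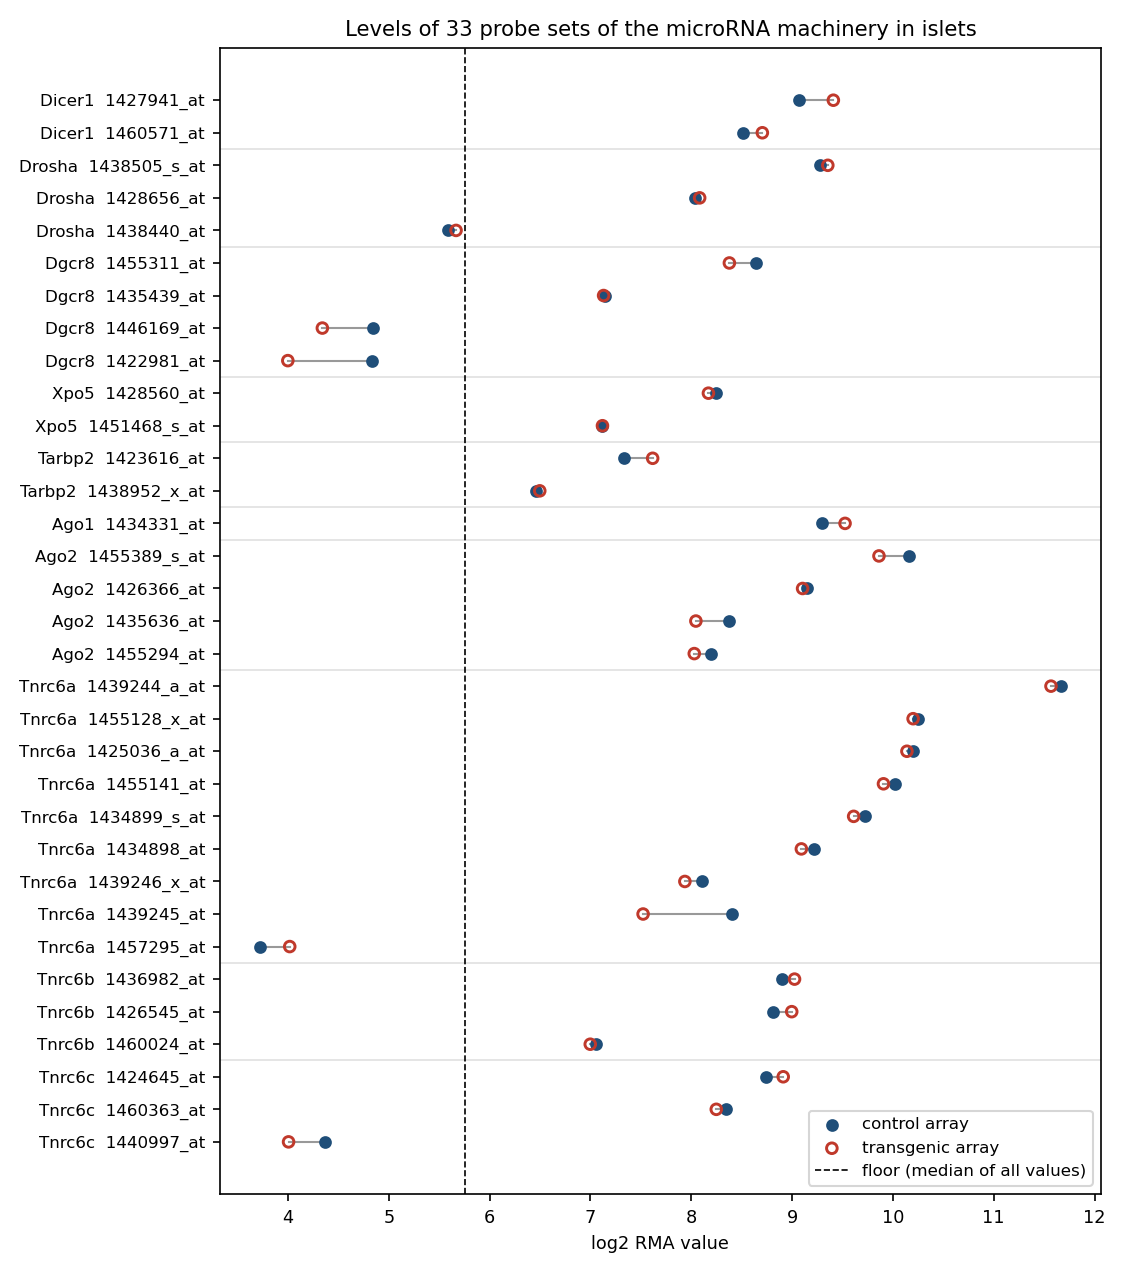
Log2 RMA values (x axis) of the 33 probe sets of the 10 machinery genes, 1 line each, on the control array (filled) and the transgenic array (open). The dashed line is the floor of 5.76, and 5 probe sets lie to its left; most pairs of points touch or nearly touch.

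Drosha, the nuclear ribonuclease that makes the first cut, read nearly the same on both arrays. Its probe set 1438505_s_at read 9.35 on the transgenic and 9.28 on the control array, a difference of 0.07. The second, 1428656_at, read 8.08 and 8.04, a difference of 0.05, and 1438440_at was below the floor on both arrays. The distance between its 2 differences at the floor was 0.03, smaller than the median of 0.20 over 3158 genes with 2 such probe sets. Of all kept genes, 79.4% differed at least as far as Drosha.

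Dgcr8, the RNA-binding partner that holds the hairpin for Drosha, was lower in the transgenic sample on all 4 of its probe sets. The probe set 1455311_at read 8.38 on the transgenic and 8.64 on the control array, a difference of -0.26 or 1.20-fold. The other probe set at the floor, 1435439_at, read 7.13 and 7.14, a difference of -0.01, although the platform table gives both probe sets the same source sequence. Thus probes of a single source differed by 0.25 in what they showed, nearly the whole of the larger value. The other 2, 1446169_at and 1422981_at, had differences of -0.50 and -0.83 but lay at 4.84 or less on both arrays, under the floor, where RMA values are mostly background. Of all kept genes, 37.3% differed at least as far as Dgcr8.

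The Dgcr8 messenger RNA is itself a Microprocessor substrate, since Drosha and Dgcr8 cut a hairpin in it and thereby limit their own level. The hairpin annotated as Mir1306 lies within the Dgcr8 gene, at chr16:18284239-18284317 on the minus strand (RefSeq, GRCm38.p6), and is shown because it links this transcript to the enzyme. Capitals again mark the mature 5p and 3p strands.
Mir1306 hairpin: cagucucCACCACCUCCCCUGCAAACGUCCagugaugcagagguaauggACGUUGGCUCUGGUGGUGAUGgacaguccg

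Xpo5 encodes exportin 5, which takes the hairpin out of the nucleus. The probe set 1428560_at read 8.17 on the transgenic and 8.25 on the control array, a difference of -0.08. The other, 1451468_s_at, read 7.12 on both arrays, with a difference of 0.001. Neither showed a difference beyond the distance usual between probe sets of a gene, and 78.1% of all kept genes differed at least as far.

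Dicer1, the cytoplasmic ribonuclease that removes the loop, had the furthest difference of the 10 genes. The probe set 1427941_at read 9.41 on the transgenic and 9.06 on the control array, a difference of 0.35 or 1.27-fold. The second, 1460571_at, read 8.71 and 8.51, a difference of 0.19 or 1.14-fold. Both were higher on the transgenic array, and their differences lay 0.15 apart. Of all kept genes, 27.1% differed at least as far as Dicer1, and of all probe sets within 0.5 of the mean level of 1427941_at, 24.8% did.

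Tarbp2, the double-stranded RNA binding protein that assists Dicer, was also higher on both of its probe sets. The probe set 1423616_at read 7.62 on the transgenic and 7.34 on the control array, a difference of 0.28 or 1.21-fold. The other, 1438952_x_at, read 6.50 and 6.46, a difference of 0.04. The letter x marks a probe set with probes that can match other sequences, as the letters s and a mark probe sets shared by several transcripts. Of all kept genes, 35.0% differed at least as far as Tarbp2.

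Of the Argonautes, which hold the guide strand, Ago1 was higher and Ago2 lower on the transgenic array. Ago1 had the single probe set 1434331_at, which read 9.53 on the transgenic and 9.29 on the control array, a difference of 0.23 or 1.17-fold. With 1 probe set its value has no second reading. Ago2, the Argonaute known for cutting fully paired targets, was lower on all 4 of its probe sets. The probe set 1455389_s_at read 9.86 on the transgenic and 10.16 on the control array, a difference of -0.30 or 1.23-fold. The probe set 1435636_at, from the same source sequence, read 8.05 and 8.38, a difference of -0.33 or 1.26-fold. The remaining pair agreed in sign and was nearer to 0: 1455294_at read 8.03 and 8.20, a difference of -0.17, and 1426366_at read 9.10 and 9.14, a difference of -0.04. The 4 differences spanned 0.29, less than the median of 0.45 over 494 genes with 4 probe sets at the floor. Of all kept genes, 32.0% differed at least as far as Ago2 and 43.1% as far as Ago1.

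**Figure D2:**
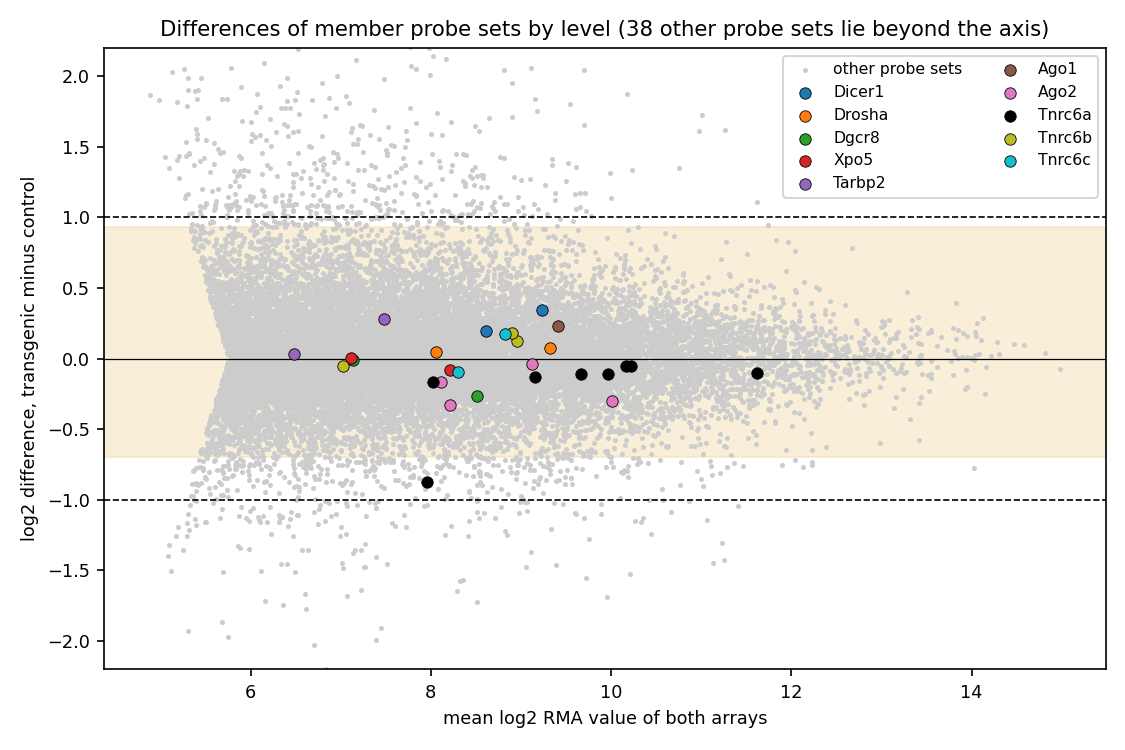
Log2 difference, transgenic minus control (y axis), against the mean log2 value of both arrays (x axis) for the 28 machinery probe sets at the floor (coloured by gene) and all other single-symbol probe sets at the floor (grey, 38 of them beyond the axis). The shaded band holds the central 95% of all differences and the dashed lines mark 2-fold; 27 of the 28 lie in the band, and the probe set of Tnrc6a at -0.88 lies below it.

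The Tnrc6 genes encode the scaffold proteins that bind an Argonaute and recruit deadenylases. Tnrc6a, encoding the GW182 protein itself, was lower in the transgenic sample on all 8 of its probe sets at the floor, by small amounts on 7 of them. The probe set with the highest level, 1439244_a_at, read 11.57 on the transgenic and 11.67 on the control array, a difference of -0.10 or 1.07-fold. The probe sets 1455128_x_at, 1425036_a_at, 1455141_at, 1434899_s_at, 1434898_at and 1439246_x_at had differences of -0.05, -0.06, -0.11, -0.11, -0.13 and -0.17. Each of these 7 is small against the array as a whole, since at least 58.2% of all probe sets at the floor differed as far.

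The eighth, 1439245_at, read 7.52 on the transgenic and 8.40 on the control array, a difference of -0.88 or 1.84-fold. It was the only 1 of the 28 past 1.5-fold in either direction, against 11.1% of all probe sets at the floor. The platform table gives it the same source sequence as 1439244_a_at and 1439246_x_at, whose differences were -0.10 and -0.17. The 8 differences spanned 0.83, against a median of 0.75 over the 10 genes with 8 probe sets at the floor. The ninth probe set, 1457295_at, was below the floor, at 4.02 and 3.72.

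Tnrc6b and Tnrc6c, the paralogs of Tnrc6a, had probe sets on both sides of 0. For Tnrc6b, 1436982_at read 9.02 on the transgenic and 8.90 on the control array, a difference of 0.13. Its probe set 1426545_at read 9.00 and 8.82, a difference of 0.18, and 1460024_at read 7.00 and 7.05, a difference of -0.06. For Tnrc6c, 1424645_at read 8.91 on the transgenic and 8.74 on the control array, a difference of 0.17. Its probe set 1460363_at, from the same source sequence, read 8.25 and 8.35, a difference of -0.10, so the sign for Tnrc6c depended on the probes. The last probe set of Tnrc6c, 1440997_at, was below the floor, at 4.01 and 4.37. Of the 9 genes with at least 2 probe sets at the floor, 6 had a single sign on all of them (Drosha, Dgcr8, Dicer1, Tarbp2, Ago2 and Tnrc6a), and Xpo5, Tnrc6b and Tnrc6c did not. The same count was not made over all genes with several probe sets, so 6 of 9 has no background to be read against.

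The rest of the pathway was read through 79 further genes in 5 lists drawn up by function. Of these, 73 had a single-symbol probe set and 68 were kept. Of the 68, 28 were higher and 40 lower on the transgenic array, with a median of -0.031; over all kept genes 54.2% were higher. At the 2-fold rule 0 were higher and 1, Ago3, was lower, against 2.51% and 0.511% of all kept genes. With probe sets averaged the count of lower genes was 0, and without the s, x and a classes it was 3, adding Hnrnpa1 at -1.15 and Hspa8 at -1.02. The brightest probe sets of these added genes gave -0.05 for Hnrnpa1 and -0.11 for Hspa8. Each also had a probe set on the higher side, at 0.24 and 0.03. The shares of all kept genes were not computed for these alternative settings.

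Among proteins that bind or aid the Microprocessor, 12 genes were kept, 4 of them higher and 8 lower, with a median of -0.040 and none past 2-fold. Srrt (Ars2), which links the cap of the primary transcript to processing, had a difference of 0.24, and the chromatin and RNA binding protein gene Safb2 of 0.26. Its paralog Safb stood at -0.15 and the cap-binding subunit gene Ncbp2 at -0.11. For Safb, Safb2 and Ncbp2 at least 1 other probe set had the opposite sign.

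Of genes that export, tail, trim or degrade microRNAs and their precursors, 8 were kept, 5 higher and 3 lower, with a median of 0.040. Eri1, a 3′ to 5′ exonuclease that trims histone messenger RNA ends and small RNAs, was the furthest of these. It read 8.03 on the transgenic and 7.26 on the control array, a difference of 0.77 or 1.71-fold, and its second probe set had a difference of 0.67. Of all kept genes, 5.53% differed at least as far. Tent2, a cytoplasmic poly(A) polymerase, stood at 0.33, with 1 of its 2 probe sets of opposite sign. Zswim8, of the ligase that removes Argonautes during target-directed microRNA decay, stood at -0.27, and Dis3l2, which degrades uridylated let-7 precursors, at -0.09. Lin28a and Lin28b, which block let-7 maturation, were below the floor on both arrays.

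**Figure D3:**
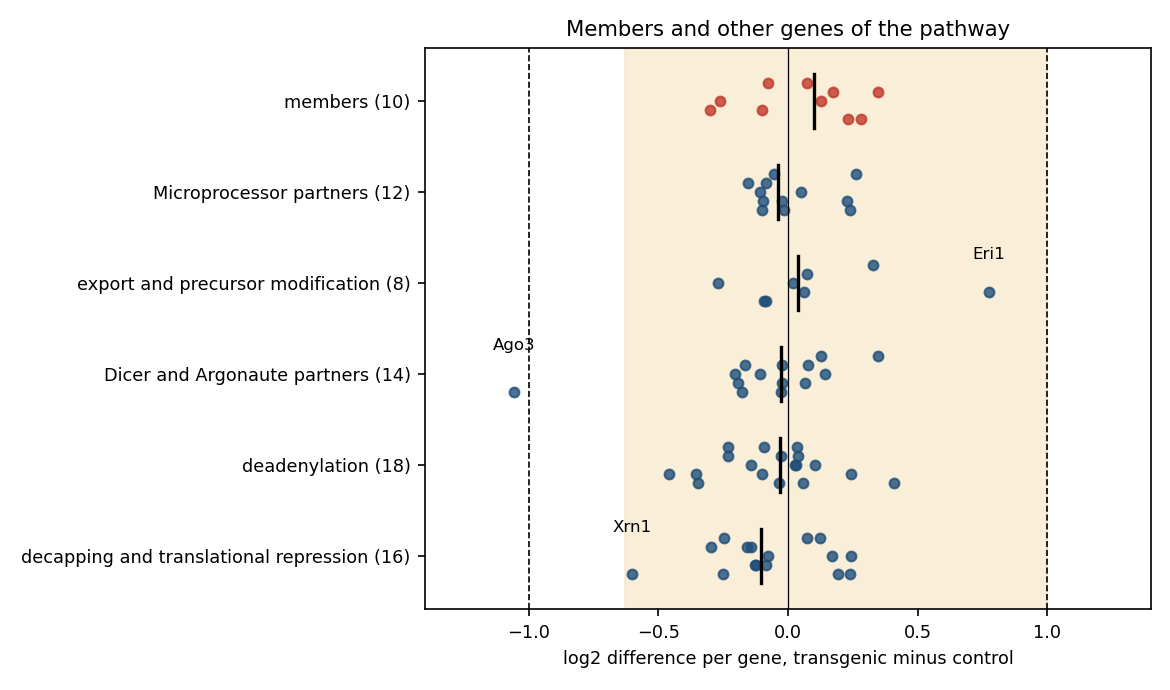
Log2 difference per gene, transgenic minus control (x axis), for the 10 machinery genes (red) and the kept genes of 5 pathway lists (blue, number in brackets), with a black bar at each median. The shaded band holds the central 95% of all kept genes, from -0.63 to 1.0, and dashed lines mark 2-fold; Ago3 at -1.06 lies past the 2-fold line, and no machinery gene leaves the band.

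Among partners of Dicer and the Argonautes, 14 genes were kept, 5 higher and 9 lower, with a median of -0.026. Ago3, a further Argonaute, read 6.86 on the transgenic and 7.92 on the control array on 1441063_at, a difference of -1.06 or 2.08-fold. The remaining probe sets above the floor gave -0.42 for 1435904_at and 0.05 for 1441089_at, so the value for Ago3 rested on a single probe set. Ago4, the last Argonaute, had a difference of -0.02 on 1453289_at and 0.38 on 1429779_at. Fxr1, a relative of the fragile X protein, stood at 0.35 with its 3 other probe sets on the lower side. Snd1 (Tudor-SN), a nuclease found with the silencing complex, stood at 0.14 and Fkbp4, a cochaperone of Hsp90, at -0.21.

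Deadenylation, the step that Tnrc6 proteins promote, was covered by 18 kept genes, of which 8 were higher and 10 lower, with a median of -0.030 and none past 2-fold. Tob1 and Btg2, antiproliferative proteins that bind the CCR4-NOT deadenylase, stood at -0.46 and -0.35, with the other probe set of Btg2 of opposite sign. Parn, a poly(A) ribonuclease, stood at 0.41 and 0.49 on its probe sets, and Pabpc1, the cytoplasmic poly(A) binding protein gene, at 0.24, with its other probe set at -0.05. Decapping and cap-bound repression had 16 kept genes, 6 higher and 10 lower, with a median of -0.10 and none past 2-fold. Xrn1, the exonuclease that degrades decapped messenger RNA, read 7.83 on the transgenic and 8.43 on the control array, a difference of -0.60 or 1.52-fold, while its other probe set gave 0.02. The decapping enhancer gene Edc3 and the cap-binding repressor gene Eif4e2 both stood at 0.24, and Lsm14b, of the same particles, at -0.30.

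Islets hold several cell types, and in a bulk sample fewer cells of a type and less RNA per cell cannot be told apart. All 10 beta cell markers were at the floor, 5 higher and 5 lower, with a median difference of 0.01. Markers of macrophages were higher in 11 of 11 kept genes (median 0.86, summed linear signal 6692 against 4438), and Cx3cr1 was below the floor on both arrays. Stellate cell markers were higher in 8 of 9 (median 0.85, sum 9049 against 5254), with Col1a1 and Pdgfra below the floor. Genes of dividing cells were higher in 11 of 11 (median 1.11, sum 5655 against 2603), and kept ductal markers in 5 of 5 (median 0.26), with Cftr below the floor. Kept markers of other endocrine cells were higher in 4 of 6 (median 0.05) and endothelial markers in 6 of 8 (median 0.08). Kept lymphocyte markers were higher in 3 of 7 (median -0.14). Kept acinar markers were higher in 6 of 8 (median 0.09, sum 110634 against 103100), with 1 at least 2-fold lower, at -2.23, and Ptf1a below the floor. Genes of the microRNA machinery are generally active in most cell types, and the part of cell composition in their differences was not tested. All 24 probe sets for poly-A spike RNAs had a higher signal in the transgenic sample (median difference 1.51), and the part of RNA input was not tested either.

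Across processing settings the machinery genes stayed within 2-fold throughout. The furthest difference of any of them under the settings tried was 0.40 in size, that of Dgcr8 when all probe sets of a gene were averaged, those under the floor included. Under the same averaging Tnrc6c changed sign, and without probe sets of the s, x and a classes Ago2 rested on 1426366_at, at -0.04.

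**Figure D4:**
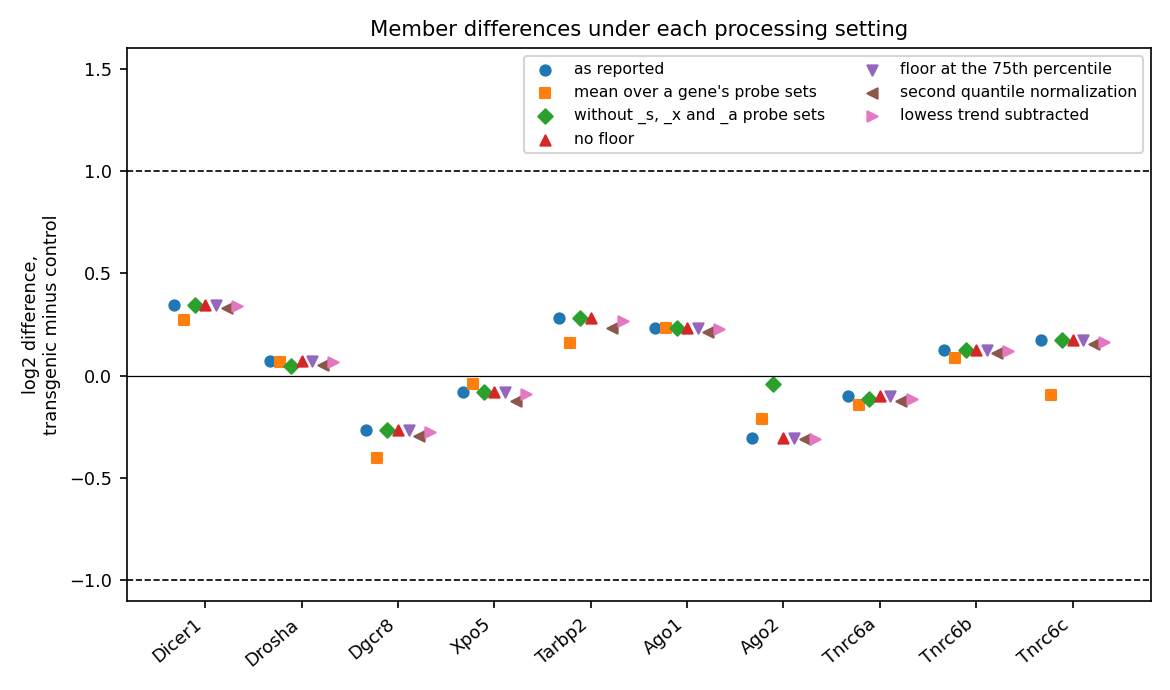
Log2 difference, transgenic minus control (y axis), of each machinery gene under the reported processing and 6 alternatives (symbols), with dashed lines at 2-fold. No point reaches 2-fold; the widest shifts are those of Ago2 without shared probe sets and of Tnrc6c with probe sets averaged, and Tarbp2 has no point under the stricter floor.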

How the data were processed

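The deposited table gives a log2 value for each probe set and array. Per the submitters' processing notes, the authors used RMA and Affymetrix Expression Console, of unstated version. The table held 45101 probe sets, of which 64 were array controls, 34945 had 1 gene symbol in the platform's annotation, 932 had several and 9160 had none there; 34741 of those with 1 symbol were matched by Entrez identifier to current GRCm38.p6 symbols. Sorted values of both columns differed by at most 0.10. RMA gives no detection call and compresses low and high values, and the number of arrays limits the precision.

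Differences were computed on all single-symbol probe sets with Python 3.11.15, numpy 2.4.6 and pandas 2.3.3, and the procedure was tested on simulated data. The machinery genes, pathway lists and marker lists were chosen with earlier results of these data known. Of each pathway list the genes past 2-fold and the 2 furthest in each direction were named. With 2 arrays no gene was sought for a like pattern. Alternatives were probe set averaging, leaving out the s, x and a classes, 2 other floors, a second quantile normalization, a lowess trend (statsmodels 0.14.6, span 0.3) and a 1.5-fold rule. Sites for the microRNAs in the machinery's own transcripts were not analysed here.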

Additional observations from a re-analysis of the deposited data

How the results depend on the processing

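With 1 array per genotype no value has a replicate error, so a value was taken to have moved when it shifted by at least 0.28, the median distance between probe sets of a gene. By that measure all 59 values of the 10 machinery genes under the alternatives stayed put, as did their median. The measure is loose, since another floor cannot change the value of a kept gene, and 0.28 exceeds most of the differences themselves. Ago2 went from -0.30 to -0.04 without the s, x and a classes and did not count as moved. Neither did Tnrc6c, from 0.17 to -0.10 with averaging. Of the 10 machinery genes, 0 passed 2-fold under any alternative or 1.5-fold under that rule. Their probe sets were recounted under the second quantile normalization and the lowess trend, and 0 passed 2-fold. The sign of Tnrc6c turned with probe sets averaged. Under the floor at the 75th percentile 9 of the 10 genes were left, without Tarbp2. For the other pathway genes, averaging probe sets left 0 at least 2-fold lower in place of 1, because Ago3 no longer passed. Leaving out the s, x and a classes gave 3, adding Hnrnpa1 and Hspa8. The 1.5-fold rule gave 1 higher, Eri1, and 2 lower, Ago3 and Xrn1, of 68 kept pathway genes, against 10.9% of all kept genes past that rule in either direction. No paired analysis was possible because each genotype had a single array. Probe sets near or under the floor of 5.76 are limited by the background of the array.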

Other observations

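Transcripts that carry microRNA hairpins are the substrates of Drosha, and some had probe sets on the array. Genes were taken by symbol after their values were seen: all single-symbol entries named as a microRNA or its host, and Meg3, Rian and Dleu2, known hosts. Of 18, 8 were kept, 4 higher and 4 lower, with a median of -0.14. Over all kept genes 54.2% were higher, the median was 0.029, and 0.511% were at least 2-fold lower. Because the list was drawn up with the values known, and Rian was added to it by name, its counts cannot be weighed against these shares. Rian, Mirg and Meg3 are noncoding RNAs of the imprinted Dlk1-Dio3 region, which holds a large microRNA cluster. Rian passed 2-fold on the lower side, reading 10.58 on the transgenic and 11.88 on the control array on 1452899_at, a difference of -1.30 or 2.47-fold. Its other 3 probe sets were lower too, at -0.82, -0.14 and -0.86. Mirg was lower on both probe sets, at -0.45 and -0.80. Of the 11 probe sets of Meg3, 8 were lower and 3 higher, from -0.68 on 1452906_at to 0.11, and the probe set with the highest level gave 0.06.

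Mir670hg, the host of miR-670, was lower on both probe sets, at -0.38 and -1.05, and Mir22hg, the host of miR-22, stood at -0.34. On the higher side were Mir142 at 0.51, Mir425 at 0.45, which reached the floor only on the transgenic array (6.06 against 5.62), and Dleu2, which hosts miR-15a and miR-16-1, at 0.44. miR-142 is known as a microRNA of blood cells. Kept macrophage markers were higher in the same sample in 11 of 11 genes, while kept lymphocyte markers were higher in 3 and lower in 4 (median -0.14). Over all kept genes 54.2% were higher. The part of cell composition in the value of Mir142 was not tested.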
